A study of Mus musculus with 20 samples.

Results

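Probes named "solexa" followed by a pair of numbers made up 44 of the probes on the miRNA bead arrays used to profile the mouse ileal crypt-villus axis, and the other 611 carried miRNA names. They were chosen by this name alone. The arrays held epithelium of 4-month-old male wild type C57BL/6J mice, in 5 fractions that a chelating buffer released one after another, V0 first and C1 last, with 4 arrays each. The label C1 stands for dividing crypt cells, V0 for mature cells of the villus tip, and V3, V2 and V1 for the steps between them, lowest first. The series text speaks of 4 mice, but the sources used here do not tie arrays to mice. All animals were untreated, no transgene or mutation entered these arrays, and a fraction is a position on the axis rather than a purified cell type.

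Small RNAs such as miRNAs are cut from longer hairpin precursors and loaded onto Argonaute proteins, where the first bases after the 5′ end (the seed) pair with target mRNAs. In the intestine their levels differ between the dividing cells of the crypt and the enterocytes that leave it, and loss of the enzyme Dicer, which makes them, damages the epithelial barrier. Solexa was an early short-read sequencing platform, and the probe names carry its name, but the sources used here do not say what RNA each of these probes captures, and no role can be stated for any of them. The names of the 44 probes hold a first number between 27 (solexa-27-9416) and 5593 (solexa-5593-81), and the second number never rises as the first rises, ending at 81. What either number means was not found in the sources used here. Across the 44 probes the second number had a Spearman correlation of 0.22 with the mean log2 signal and of 0.15 with the number of arrays that detected the probe, a description over probes that share the same arrays. The array annotation gave chromosome 0 for 44 of the 44 solexa-named probes, against 21 of the 611 miRNA-named probes, and no position was used here. No sequence of a solexa-named probe was analysed here. One miRNA served as a point of comparison, since its probe was the only one called in each of V0, V1, V2 and V3 against C1, and its mature sequence from RefSeq (GRCm38.p6, chr11:75463772-75463793, plus strand) is shown with its seed, bases 2 to 8, in capitals.
mmu-miR-22-3p: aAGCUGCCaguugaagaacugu

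Signals are given as log2 of the deposited normalized intensity, and a probe was taken as detected on an array where its detection p-value, which compares its beads with background, was at most 0.01. Differences in brightness between probes also depend on the probe, so levels are compared between arrays and not read as amounts of RNA. The arrays detected 306 to 475 probes of all kinds. The label of the tissue was checked with 8 epithelial miRNAs, of which 5 were detected on 20 of the 20 arrays and none was undetected throughout. The summed signal of these 8 was 18.18 to 18.37 log2 on the V0 arrays and 16.74 to 18.25 on the C1 arrays. Leukocyte miRNAs (5 probes) were at 15.78 to 16.70 in V0 and 13.82 to 16.13 in C1, and red cell miRNAs (3 probes, 1 of them never detected) at 13.66 to 14.59 in V0 and 11.23 to 12.89 in C1. Smooth muscle and mesenchyme miRNAs (3 probes) were at 16.09 to 17.01 in V0 and 15.22 to 16.16 in C1. Endothelial miRNAs were at 12.75 to 15.57 in V0 and 12.03 to 14.65 in C1. Striated muscle miRNAs were at 12.88 to 14.04 in V0 and 11.28 to 13.69 in C1, and neuronal miRNAs at 11.10 to 13.54 and 10.83 to 11.17. Their part in the values of the solexa-named probes was not tested.

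On 2 arrays, C1 replicate 4 and V3 replicate 4, the solexa-named probes stood in another order than elsewhere. The Spearman correlation of an array's 44 values with the median of the other arrays was -0.05 on C1 replicate 4 and 0.11 on V3 replicate 4, against 0.43 (V0 replicate 1) to 0.97 (V3 replicate 1) on the other 18 arrays. For the 611 miRNA-named probes the same correlation was 0.43 on C1 replicate 4 and 0.55 on V3 replicate 4, against 0.74 to 0.92 on the other 18. These 2 arrays, 10% of the total, held the highest value of 17 of the 44 solexa-named probes (38.6%) and of 212 of the 611 miRNA-named probes (34.7%). They held the lowest value of 13 solexa-named probes (29.5%) and of 127 miRNA-named probes (20.8%). These were the 2 dimmest arrays before normalization. The median signal of all probes was then 319 on C1 replicate 4 and 310 on V3 replicate 4. Elsewhere it was 480 (C1 replicate 1) to 1752 (V0 replicate 3). For solexa-2054-231, normalization took 1059 to 13.44 log2 on C1 replicate 4, but 1092 to 9.74 log2 on V0 replicate 2. C1 replicate 4 was also the only array on slide 4. Each comparison with C1 rests on it, and the values without both arrays are given with those comparisons.

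Every solexa-named probe was detected at least once, most of them on most arrays, and few on every array. Of the 44, 5 were detected on all 20 arrays (11.4%), 18 on 15 to 19, 11 on 6 to 14, 10 on 1 to 5 and 0 on none. Of the 611 miRNA-named probes, 134 were detected on all 20 arrays (21.9%), 174 on 15 to 19, 145 on 6 to 14, 123 on 1 to 5 and 35 on none (5.73%). The median was 15 arrays in both sets, and 12 for the 116 minor-strand probes, whose names end in a star. The 5 solexa-named probes detected throughout were solexa-5560-82, solexa-3253-144, solexa-4153-111, solexa-5593-81 and solexa-3024-155. At the other end, solexa-2546-186 was detected on 1 V3 array and solexa-2572-184 on 1 V1 array.

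**Figure D1:**
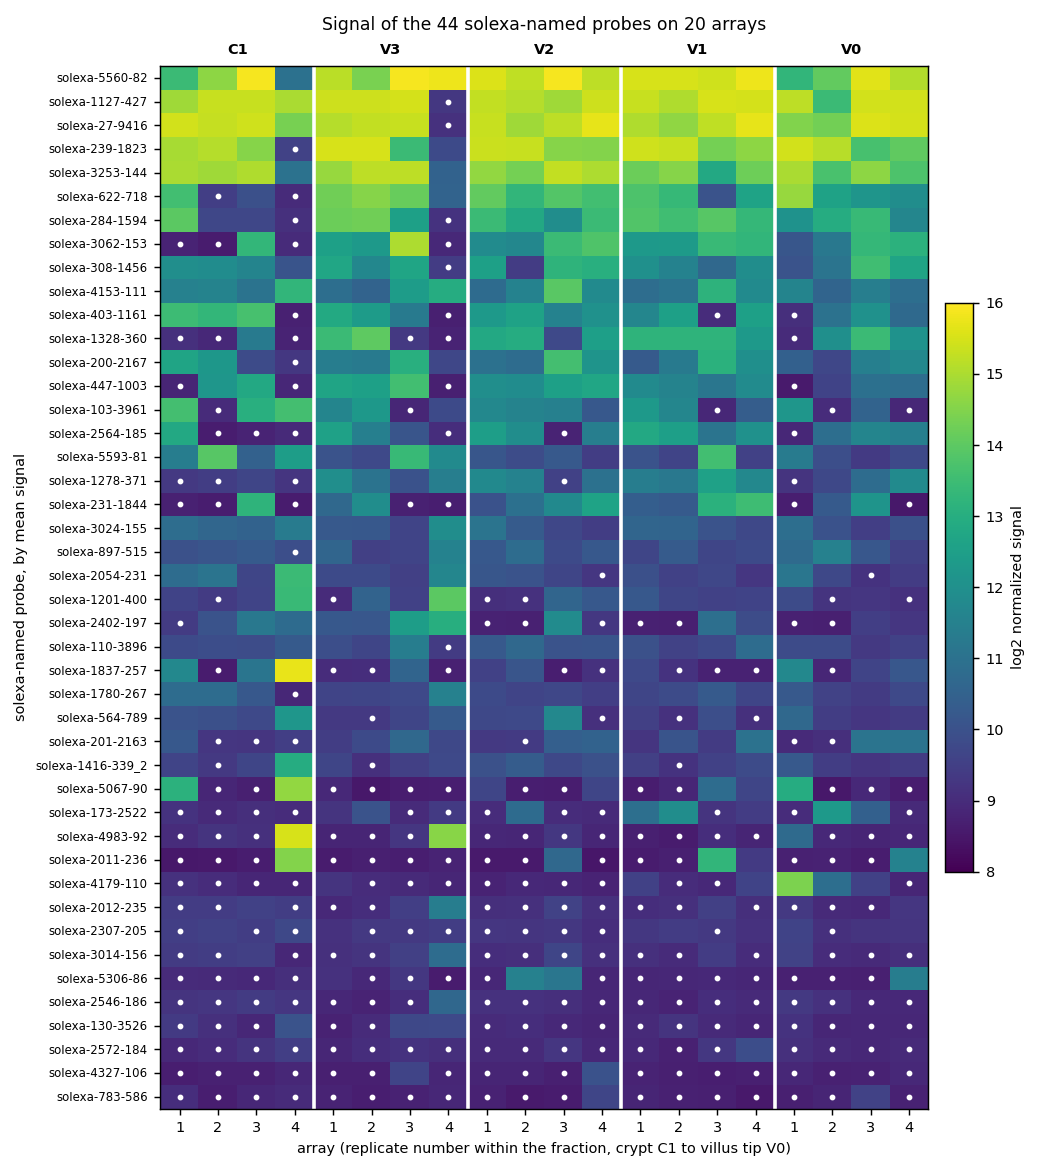
Log2 normalized signal of the 44 solexa-named probes (rows, by mean signal) on the 20 arrays (columns, replicates 1 to 4 of each fraction from the crypt, C1, to the villus tip, V0). White dots mark values with a detection p over 0.01. C1 replicate 4 and V3 replicate 4 hold the highest value of 17 of the 44 probes and the lowest of 13.

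The number of solexa-named probes detected was lowest in the crypt fraction by the median. It was 25, 20, 30 and 20 on the 4 C1 arrays, 32, 28, 31 and 23 in V3, 29 on each of the 4 V2 arrays, 32, 28, 31 and 34 in V1, and 27, 27, 33 and 31 in V0. Of the C1 arrays 3 lay below every V0 array, and C1 replicate 3, with 30, lay among them. The 20 on C1 replicate 4 and the 23 on V3 replicate 4 came from the 2 dimmest arrays before normalization. The median shares of the 44 probes were C1 51.1%, V3 67.0%, V2 65.9%, V1 71.6% and V0 65.9%. Those of the 611 miRNA-named probes were C1 58.0%, V3 58.8%, V2 62.8%, V1 67.7% and V0 66.0%. By the medians the solexa-named share was the lower of the pair in C1 and V0 and the higher in V3, V2 and V1. On the 4 V2 arrays it was 65.9% each time, just above the miRNA-named 52.2% to 65.6%, while the ranges overlapped in the other 4 fractions, and this difference was not tested.

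**Figure D2:**
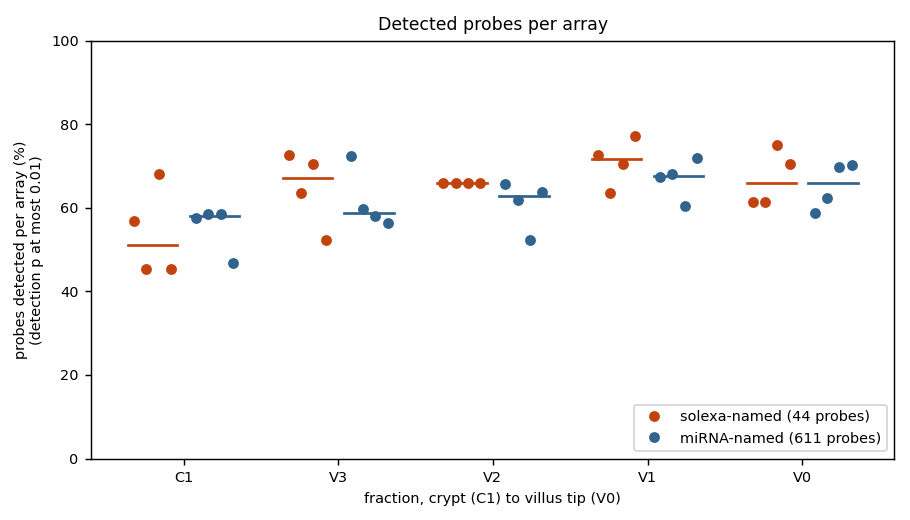
Percentage of the 44 solexa-named probes and of the 611 miRNA-named probes detected (detection p at most 0.01) on each array, by fraction from the crypt (C1) to the villus tip (V0). Points are arrays (4 per fraction) and bars are medians, which for the solexa-named probes were 51.1% in C1 and 65.9% to 71.6% in the other fractions.

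In brightness the typical solexa-named probe lay close to the typical miRNA-named one. The mean log2 signal over the 20 arrays ran from 8.85 to 14.92 with a median of 10.09 for solexa-named probes, against 8.58 to 15.80 with a median of 10.10 for miRNA-named probes, and the median of star probes was 9.80. Of the 44, 5 were among the brightest 65 probes (11.4%), against 60 of 611 miRNA-named probes (9.82%), and 22 ranked in the brighter 50% of all probes, against 305 miRNA-named probes (49.9%). The median solexa-named signal minus the median miRNA-named signal on the same array was, from the crypt upwards, C1 -0.11 ± 0.21 log2, V3 0.00 ± 0.14, V2 0.35 ± 0.12, V1 0.14 ± 0.09 and V0 -0.03 ± 0.23 (SD, n = 4 each). The solexa-named median was the higher of the pair on 4 of the 4 arrays in V2, by 0.24 to 0.52, and in V1, by 0.0076 to 0.22, whereas in C1 the difference ran from -0.39 to 0.10. The 44 probes, 6.72% of the array's probes, took a median of 6.63% of the summed signal on C1 arrays, 7.34% on V3, 7.05% on V2, 6.69% on V1 and 5.73% on V0 arrays.

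The values of the solexa-named probes were widely spread between arrays of the same fraction. The median SD within fractions was 1.12 log2 for solexa-named probes and 0.86 for miRNA-named probes. Among probes detected on 15 or more arrays it was 1.35 (23 probes) against 1.11 (308 probes). Without V3 replicate 4 and C1 replicate 4 both medians were lower, at 0.80 for solexa-named and 0.62 for miRNA-named probes. The highest and lowest array differed by over 4 log2 units, 16-fold, for 25 of the 44 solexa-named probes (56.8%) and 237 of the 611 miRNA-named probes (38.8%).

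The brightest of the 44, solexa-5560-82, ranked 28 among all probes of the array. Its log2 signal was 13.47, 14.63, 15.90 and 10.97 on the C1 arrays, 15.16, 14.39, 15.90 and 15.80 in V3, 15.56, 15.24, 15.90 and 15.21 in V2, 15.50, 15.52, 15.42 and 15.78 in V1, and finally 13.27, 14.08, 15.64 and 15.09 in V0. The V1 and V2 arrays were all above 15, and both ends of the axis held lower arrays. Next came solexa-1127-427, at 15.21, 13.44, 15.44 and 15.44 in V0 and 14.85, 15.34, 15.34 and 14.98 in C1, and solexa-27-9416, at 14.48, 14.30, 15.59 and 15.48 in V0 and 15.46, 15.30, 15.42 and 14.37 in C1. Before normalization their signals on the arrays that detected them ran from 11165 to 60966 for solexa-1127-427 and from 3469 to 62627 for solexa-27-9416, a wider spread than after it. Quantile normalization sets probes of one rank to one value on all arrays. Neither was detected on V3 replicate 4, where they read 9.28 and 9.13 log2, while the other 3 V3 arrays read 15.38 to 15.48 for solexa-1127-427 and 15.11 to 15.32 for solexa-27-9416. Both thus dropped out on that single array.

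The probe solexa-239-1823 behaved the same way on 2 arrays. It read 14.95, 15.11, 14.53 and 9.57 in C1, the last not detected, 15.50, 15.50, 13.44 and 9.81 in V3, and 13.68 to 15.46 in the other fractions. For solexa-3253-144 the values were 14.98, 14.87, 15.06 and 11.03 in C1, 14.76, 15.21, 15.21 and 10.52 in V3, and 12.83 to 15.27 in V2, V1 and V0. The low arrays were again replicate 4 of C1 and of V3.

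Probes that were otherwise dim showed the reverse on the same arrays, the 2 dimmest before normalization. The signal of solexa-4983-92 was 15.52 on C1 replicate 4 and 14.59 on V3 replicate 4, with 10.77 on V0 replicate 1 and 8.62 to 9.29, not detected, on the other 17. On C1 replicate 4, solexa-1837-257 read 15.74 against 8.60 to 11.75 on the other C1 arrays, and solexa-2011-236 read 14.51 against 8.52 to 8.65. Other single-array peaks lay elsewhere, such as 14.41 for solexa-4179-110 on V0 replicate 1, where the other V0 arrays read 8.86 to 10.89. These 4 probes were chosen after their values were seen. They were detected on 3, 10, 5 and 6 of the 20 arrays.

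Between the villus tip and the crypt, V0 against C1, no solexa-named probe was called. The comparison was made by limma over all probes detected on 4 of 4 arrays of either fraction, and a call required an adjusted p no higher than 0.05 and a change of at least 2-fold. Of the 19 solexa-named probes tested 0 were called, and 2 of the 321 probes tested were (0.623%), namely miR-22, a miRNA found in most tissues, and the star probe miR-24-2*. At an unadjusted p under 0.05 there were 2 solexa-named probes of 19 (10.5%), against 54 of all 321 (16.8%). The exact rank-sum test called no probe here or in the other comparisons of fractions, but with 4 arrays against 4 its smallest p is 0.0286, so that 184 of the 321 probes would have had to reach it for any call, and its result carries no information on single probes. The 4 arrays of V0 and of C1 did not overlap for 0 of the 19, against 7.79% of all probes tested. The median difference, V0 minus C1, was -0.18 log2 over the 19 (8 higher, 11 lower) and -0.04 over all tested, and with slide as a random block the median of the 19 was 0.29. Without V0 replicate 2 it was 0.04 over 21 probes tested. Of the 19, 10 passed the detection filter in both fractions, 8 in V0 alone and 1 in C1 alone, and the other 25 were not tested. A probe that passed in 1 fraction alone tends to be higher there, so counts and medians over tested probes are descriptions only. With 4 arrays a fraction the median SE was 0.88 log2 for these probes and 0.74 for miRNA-named probes, which limits what could be called.

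The highest V0 minus C1 value among the tested probes was that of solexa-622-718. It read 14.76, 12.62, 12.17 and 11.91 in V0, against 13.59, 9.48, 9.95 and 8.97 in C1, where the values 9.48 and 8.97 were not detected. Of the C1 arrays 3 lay below every V0 array, and C1 replicate 1 lay among them. The difference was 2.37 ± 1.05 log2 (SE, adjusted p = 0.268). The lowest was that of solexa-5593-81, with 11.32, 9.91, 9.36 and 9.75 in V0 against 11.38, 13.93, 10.50 and 12.45 in C1, a difference of -1.98 ± 0.93 (SE, adjusted p = 0.287). Here 3 of the V0 arrays lay below every C1 array and V0 replicate 1 did not. Before normalization this order did not hold. The probe then read 1139, 1236, 1192 and 1038 in V0 against 886, 16195, 1067 and 613 in C1, where only replicate 2 lay above every V0 array. A probe of the same direction, solexa-2054-231, read 11.13, 9.74, 9.16 and 9.43 in V0 and 10.82, 11.06, 9.68 and 13.44 in C1, a difference of -1.39 ± 0.66 (SE, adjusted p = 0.291), which was -0.66 without C1 replicate 4. As a measure of a called probe on the same arrays, miR-22 differed by 2.72 ± 0.48 log2 (SE, adjusted p = 0.00677).

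In V1 and V2, as in V0, no solexa-named probe passed the adjusted threshold against C1. All comparisons with C1 share the same 4 C1 arrays. For V1 against C1, 25 were tested and 0 called, against 2 of 346 overall (0.578%), with 7 of 25 at an unadjusted p under 0.05 (28%) against 24.6% of all. Of the 25, 14 passed the filter in V1 alone, 1 in C1 alone and 10 in both, and 5 of the 7 were among the 14. The median difference was 0.22 log2 over the 25 (16 higher, 9 lower) and -0.01 over all tested, and over the 10 detected on every array of both fractions it was 0.00 (5 higher, 5 lower). It was 0.04 without V1 replicate 4, and over all 44 probes, with no detection filter, -0.09 (19 higher, 25 lower), while slide as a fixed or random block gave 0.89 and 0.59 over the 25.

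For V2 against C1, 24 were tested and 0 called, against 2 of 310 (0.645%), with 7 of 24 at an unadjusted p under 0.05 (29.2%) against 20% of all. Of the 24, 13 passed the filter in V2 alone, 2 in C1 alone and 9 in both, and 4 of the 7 were among the 13. The median was 0.25 (16 higher, 8 lower) over the 24 and 0.00 over all tested, 0.17 (7 higher, 2 lower) over the 9, and 0.01 (23 higher, 21 lower) over all 44 with no filter. It was 0.42 without V2 replicate 1, and the fixed and random slide blocks gave 0.58 and 0.66, whereas slide 2 alone, with its single C1 array, gave -0.08 (12 higher, 12 lower). These medians thus have no stable size or, in part, direction.

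For V3 against C1, 19 were tested and 0 called, against 1 of 277 (0.361%), with 2 of 19 at an unadjusted p under 0.05 (10.5%) against 9.39% of all. Of the 19, 8 passed the filter in V3 alone, 5 in C1 alone and 6 in both. The median was 0.02 (10 higher, 9 lower), against -0.09 over all tested, and leaving out 1 array moved it between -0.18 (without C1 replicate 4) and 0.51 (without V3 replicate 4). Without V3 replicate 4 and C1 replicate 4, no solexa-named probe was called in V0, V1, V2 or V3 against C1, with medians of 0.28 for V3, 0.19 for V2, 0.18 for V1 and -0.27 for V0. On signals before normalization 18 of the 19 probes were higher in V0 than C1 by their means, and the median difference of all probes tested was then 0.95 log2.

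**Figure D3:**
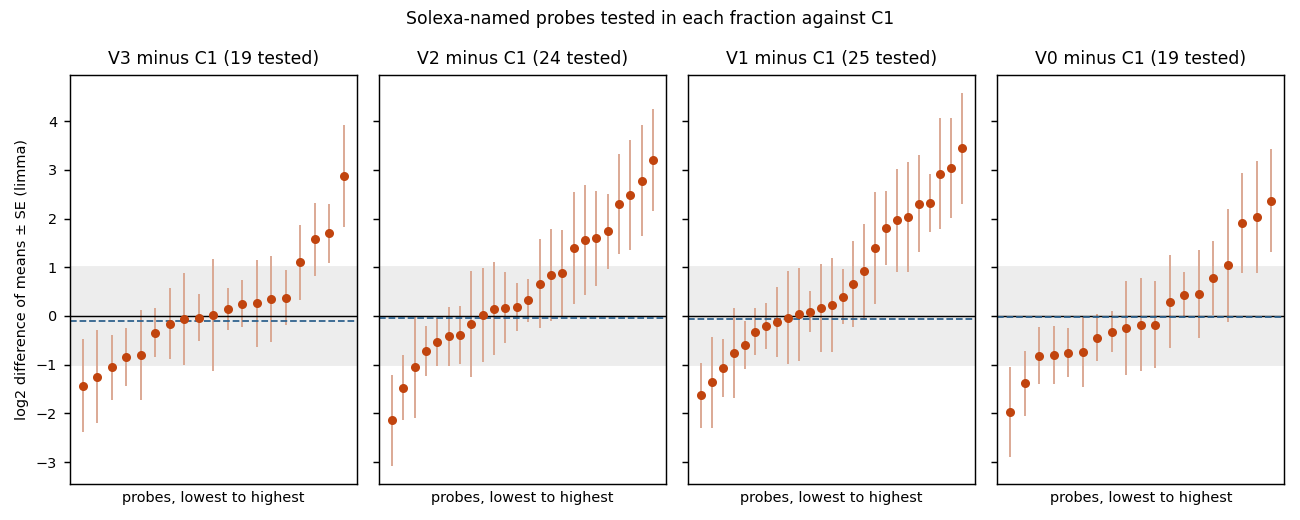
Log2 difference of fraction means (limma, ± SE) for each solexa-named probe tested in V3, V2, V1 and V0 against C1, sorted within each panel. The grey band spans less than a 2-fold change, the dashed line is the median of the miRNA-named probes tested, and none of the 19, 24, 25 and 19 probes passed the adjusted threshold.

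The clearest separation of V1 from C1 was in solexa-1278-371. Its log2 signal was 11.40, 11.21, 12.59 and 11.75 in V1, against 9.33, 9.45, 9.66 and 9.24 in C1, where 1 of the 4 arrays (replicate 3) detected it. The lowest V1 array was 1.56 log2 above the highest C1 array, and the difference of means was 2.32 ± 0.60 (SE, adjusted p = 0.120). This probe and solexa-1328-360 were the 2 of 25 whose V1 arrays all lay above their C1 arrays (8%), against 5.2% of all probes tested, and 22.3% in either direction. Both had passed the detection filter in V1 alone, where they are high, so this share is a description. In V3 it read 11.96, 11.05, 10.02 and 11.42, again above each C1 array, a difference of 1.69 ± 0.60 (SE, adjusted p = 0.415), and it was the only one of 19 without overlap there (5.26%, against 1.44% of all higher in V3 and 1.81% in either direction), having passed the filter in V3 alone. Before normalization the probe read 434 on V3 replicate 4, below C1 replicates 2 and 3 (512 and 792), so the V3 arrays overlapped C1 there. In V2 it read 11.78, 11.55, 9.55 and 10.97, and in V0 9.19, 9.75, 10.84 and 11.82. The C1 arrays were within 0.42 log2 of each other, V2 replicate 3 lay among them, and V0 replicates 1 and 2 lay just below and just above them.

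The values of solexa-1328-360 were 13.19, 13.21, 13.19 and 12.31 in V1, against 9.12, 8.92, 11.30 and 8.80 in C1, where only replicate 3 was detected. The difference was 3.44 ± 1.13 log2 (SE, adjusted p = 0.148). In the other fractions this probe varied widely, at 13.47, 14.003, 9.32 and 8.79 in V3, 12.83, 12.94, 9.76 and 12.51 in V2, and 8.997, 11.99, 13.44 and 12.08 in V0. V3, V2 and V0 each held at least 1 array above the lowest V1 array and at least 1 below the highest C1 array. When only the V1 and C1 arrays were fitted, solexa-1278-371 and solexa-1328-360 were both called (adjusted p = 0.0197 each), the spread being estimated then without the other fractions. Since both had passed the detection filter in V1 alone, where they are high, these calls are descriptions only.

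Another probe in V1, solexa-284-1594, read 13.83, 13.55, 13.93 and 13.31, against 13.97, 9.71, 9.70 and 9.11 in C1. The V1 arrays were within 0.61 log2, and C1 replicate 1 stood above them while the other 3 C1 arrays stood at 9.11 to 9.71. The difference was 3.03 ± 1.03 (SE, adjusted p = 0.148), and without C1 replicate 1 it was 4.15 (adjusted p = 0.0256). The smaller p, from leaving out the C1 array above V1, is a description only. This probe had passed the detection filter in V1 alone. In V3 it read 14.19, 14.26, 12.53 and 9.18, in V2 13.47, 12.83, 11.93 and 13.47, and in V0 12.08, 12.97, 13.38 and 11.68.

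In V2 the smallest p belonged to solexa-622-718, with 14.08, 13.26, 13.85 and 13.59 in V2, against the C1 values given above. The V2 arrays lay within 0.82 log2, and C1 replicate 1 lay among them. The difference was 3.20 ± 1.05 (SE, adjusted p = 0.178), and 4.23 without C1 replicate 1 (adjusted p = 0.0396). In V3 this probe read 14.26, 14.53, 14.15 and 10.53, a difference from C1 of 2.87 ± 1.04 (SE, adjusted p = 0.429), and of 3.82 without V3 replicate 4 (adjusted p = 0.0479). In V1 it read 13.78, 13.36, 10.06 and 12.63. Its calls in V2 and V3 therefore each turned on 1 array. It had passed the detection filter in V2 and in V3 but not in C1, so these calls are descriptions only.

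The next probes in V2 were solexa-3062-153 and solexa-5593-81. The first read 11.86, 11.70, 13.44 and 13.80 in V2, against 8.81, 8.62, 13.29 and 8.97 in C1, a difference of 2.78 ± 1.14 (SE, adjusted p = 0.201). Only C1 replicate 3 detected it in C1, and that array was the only C1 array on slide 2. The second read 10.13, 9.85, 10.25 and 9.46 in V2, each below the C1 values given above, a difference of -2.14 ± 0.93 (SE, adjusted p = 0.212). It was the only one of 24 without overlap (4.17%), against 12.6% of all probes lower in V2 and 15.5% in either direction, and the gap between the highest V2 and the lowest C1 array was 0.25 log2. Before normalization solexa-5593-81 read 1032, 1238, 829 and 1087 in V2 against 886, 16195, 1067 and 613 in C1. The V2 and C1 arrays thus overlapped there. In V3 the third smallest p was that of solexa-5560-82, at 1.57 ± 0.75 log2 from C1 (SE, adjusted p = 0.487), a value that was 0.49 without V3 replicate 4 and C1 replicate 4.

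Between the uppermost fractions, V0 and V1, most solexa-named probes tested had the lower mean in V0. Of 26 tested, 8 were higher and 18 lower in V0, with a median of -0.40 log2 against 0.05 over all 356 tested. Of the 26, 2 passed the detection filter in V0 alone, 8 in V1 alone and 16 in both, and over these 16 the median was -0.38 (4 higher, 12 lower). Over all 44 with no filter it was -0.17 (17 higher, 27 lower), without V0 replicate 2 it was -0.23 (12 higher, 16 lower), and on slide 2 alone -0.22 (7 higher, 19 lower). No solexa-named probe was called by limma, nor was any of the 356 (0%), and 1 of 26 had an unadjusted p under 0.05 against 3.65% of all. That probe was solexa-1278-371, at -1.34 ± 0.59 log2 (SE, adjusted p = 0.9996). The only one without overlap (3.85%, against 1.12% of all lower in V0 and 3.37% in either direction) was solexa-447-1003, which had passed the filter in V1 alone and is named after its values were seen, with 8.57, 9.61, 10.94 and 10.86 in V0 against 11.82, 11.58, 11.13 and 11.86 in V1, a difference of -1.60 ± 0.98 (SE, adjusted p = 0.9996). A shift shared by the list was not tested as such.

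A linear trend over the 5 fractions, from C1 (step 0) to V0 (step 4), was fitted to use all arrays at once. Of the 29 solexa-named probes tested 0 were called, as were 0 of all 384 (0%), and 4 of the 29 had an unadjusted p under 0.05 (13.8%) against 24.2% of all. An exact test was not run for the trend. The smallest p was that of solexa-2402-197, at -0.45 ± 0.18 log2 per step (SE, adjusted p = 0.164), followed by solexa-2054-231 at -0.33 ± 0.15 (adjusted p = 0.184), which was -0.13 without V3 replicate 4 and C1 replicate 4. The other 3 named by the rule were solexa-5593-81 at -0.45 ± 0.21 (adjusted p = 0.187), solexa-1328-360 at 0.58 ± 0.26 (adjusted p = 0.187) and solexa-284-1594 at 0.49 ± 0.24 (adjusted p = 0.200), the first lower and the other 2 higher towards the villus tip. Without V3 replicate 4 and C1 replicate 4, solexa-284-1594 was at 0.25 per step. Without V0 replicate 1, solexa-1328-360 was at 0.79 per step (adjusted p = 0.0496). This probe had entered the trend through V1 and V2, where its means are high, so this value is a description only.

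The slide on which an array lay moved with the values of several of these probes. The fractions V0, V1 and V2 each had 2 arrays on slide 2 (replicates 3 and 4) and 2 on slide 1 (replicates 1 and 2), whereas slide 3 held 2 V3 and 2 C1 arrays. The trend's leading probe, solexa-2402-197, was detected on 0 of the 6 V0, V1 and V2 arrays of slide 1 and on 5 of the 6 of slide 2. It read 9.27 to 11.87 on slide 2 and 8.69 to 8.77 on slide 1. On slide 2 itself it averaged 1.83 log2 lower in V0 than on the single C1 array (V0 minus C1 -1.83).

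**Figure D4:**
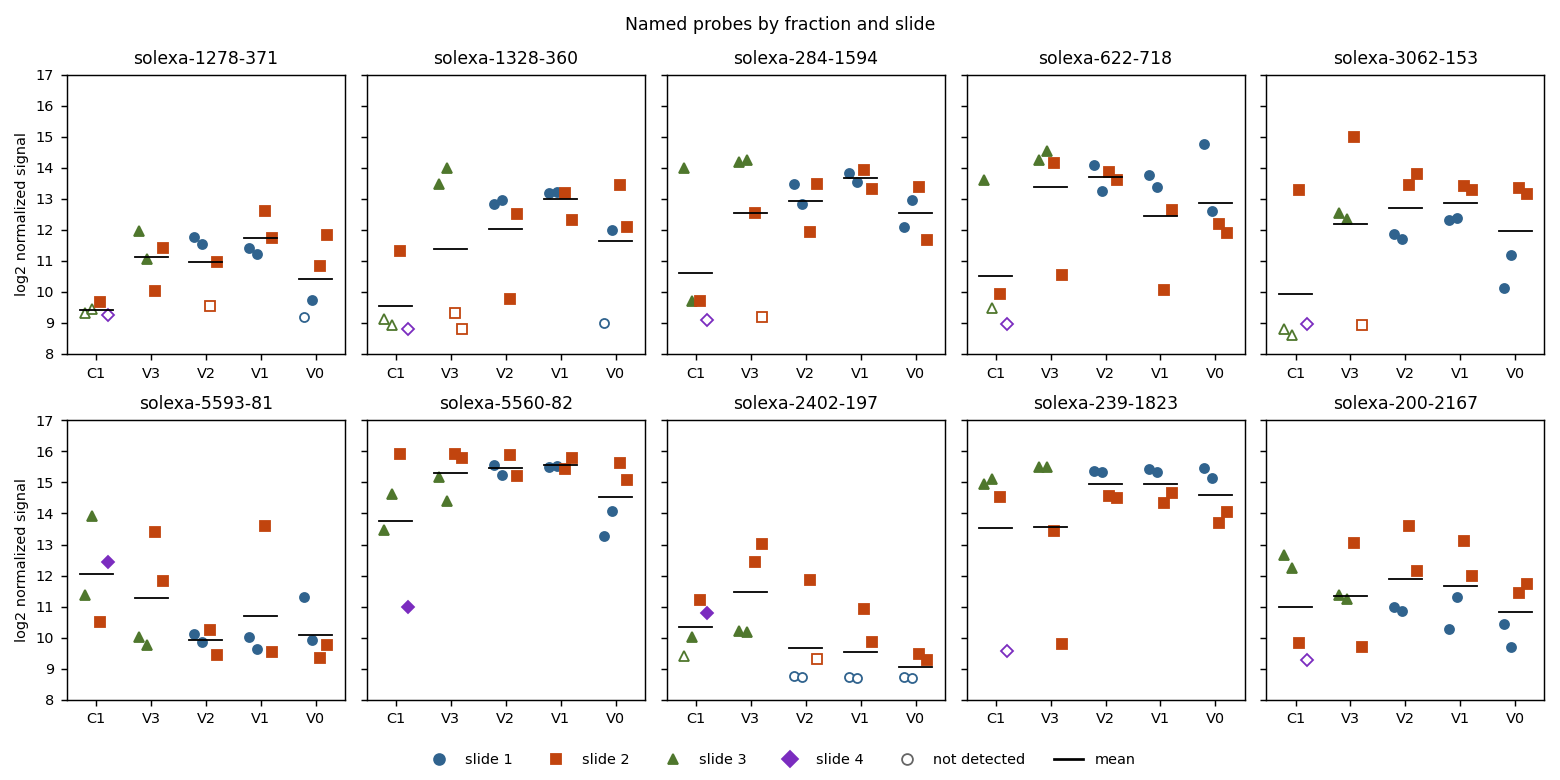
Log2 normalized signal of 10 solexa-named probes on each array, by fraction from the crypt (C1) to the villus tip (V0). Symbols give the slide, open symbols mark arrays that did not detect the probe, and bars are means of the 4 arrays. On slide 2, solexa-3062-153 is higher and solexa-239-1823 lower than on slide 1 in V0, V1 and V2.

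Since V0, V1 and V2 were balanced over slides 2 and 1, the slides could be compared within these fractions. This comparison was added after the values were seen, and it cannot tell the slide apart from the mice, because arrays of different slides may come from different mice. With 4 mice in the series text, the 6 arrays of a slide can include several fractions of 1 mouse. They were fitted as independent, so the SE and p-values can be too small, and the counts are descriptions. With limma on these 12 arrays, fitting fraction and slide, 6 of the 319 probes tested were called (1.88%), and 3 of these were among the 21 solexa-named probes tested (14.3%). At an unadjusted p under 0.05 there were 11 of 21 solexa-named probes (52.4%), against 61 of all 319 (19.1%). Of the 21, 16 were detected on all 12 arrays, among them the 3 called and 8 of the 11. The arrays of slide 2 and slide 1 did not overlap for 3 of the 21 (14.3%), against 4.39% of all. The 3 called miRNA-named probes were miR-345-5p, miR-689 and miR-701.

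The largest of the 3 differences was in solexa-3062-153. On slide 2 it read 13.44 and 13.80 in V2, 13.42 and 13.27 in V1, and 13.34 and 13.15 in V0, against 11.86 and 11.70 in V2, 12.33 and 12.37 in V1, and 10.14 and 11.20 in V0 on slide 1. The difference, slide 2 minus slide 1, was 1.80 ± 0.28 log2 (SE, n = 6 arrays each, limma adjusted p = 0.00814), and within fractions it was 1.84 in V2, 0.996 in V1 and 2.58 in V0. Set against the single C1 array of slide 2, the arrays of that slide differed by -1.33 log2 for V3, 0.32 for V2, 0.05 for V1 and -0.05 for V0, while on slide 3 the difference of V3 from C1 was 3.72. The slide 2 value for V3 averages 15.00 on replicate 3 and 8.92, not detected, on the dim replicate 4, against 13.29 in C1.

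In solexa-239-1823 slide 2 was the lower one. It read 14.56 and 14.51 in V2, 14.34 and 14.65 in V1, and 13.68 and 14.05 in V0 on slide 2, against 15.36 and 15.34 in V2, 15.42 and 15.34 in V1, and 15.46 and 15.14 in V0 on slide 1. The 6 slide 1 arrays lay within 0.32 log2 of each other over 3 fractions. The difference was -1.05 ± 0.17 (SE, n = 6 arrays each, limma adjusted p = 0.00814), and within fractions -0.82 in V2, -0.89 in V1 and -1.44 in V0. On slide 3, where V3 and C1 lay together, this probe read 15.50 and 15.50 in V3 and 14.95 and 15.11 in C1.

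The third, solexa-200-2167, was higher on slide 2. It read 13.61 and 12.15 in V2, 13.10 and 11.99 in V1, and 11.45 and 11.72 in V0 on slide 2, against 10.97 and 10.84 in V2, 10.27 and 11.30 in V1, and 10.45 and 9.69 in V0 on slide 1. The difference was 1.75 ± 0.32 (SE, n = 6 arrays each, limma adjusted p = 0.0169), and within fractions 1.97 for V2, 1.76 for V1 and 1.51 for V0. In all 3 probes the difference kept its sign in each of the 3 fractions. On signals before normalization only solexa-200-2167 of the 3 was called. On normalized signals solexa-200-2167 lost its call without V0 replicate 2, V1 replicate 1 or V2 replicate 2 (adjusted p = 0.0633, 0.0583 and 0.0617 by limma).

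Values within one slide were available for V0, V1, V2 and V3 against a single C1 array on slide 2, and for V3 against C1 on slide 3 with 2 arrays each. On slide 2, solexa-284-1594 was above C1 by 1.16 log2 for V3, 3.003 for V2, 3.92 for V1 and 2.83 for V0, and on slide 3 by 2.39 for V3. The values of solexa-622-718 on slide 2 were 2.40 for V3, 3.77 for V2, 1.40 for V1 and 2.09 for V0, and 2.87 for V3 on slide 3. Those of solexa-1278-371, in the same order, were 1.06, 0.60, 2.51 and 1.67 on slide 2 and 2.12 on slide 3. Before normalization this probe read 913 and 434 (replicate 4) on the V3 arrays of slide 2, against 792 on its C1 array. On normalized signals the means of these 3 probes were above C1 in every within-slide value. All 3 were named by their p against C1 on these same arrays, and none passed the detection filter in C1. Their shared sign is therefore a description only. Single arrays did not all lie above C1. On slide 2, solexa-284-1594 read 9.18 on V3 replicate 4 against 9.70 in C1. There solexa-1278-371 read 9.55 on V2 replicate 3 against 9.66 in C1. The C1 arrays of slide 3 read 13.97 and 9.71 for solexa-284-1594, and 13.59 and 9.48 for solexa-622-718. Signs were mixed for solexa-1328-360, at -2.25, -0.17, 1.45 and 1.46 on slide 2 and 4.72 on slide 3, and for solexa-5593-81, at 2.12, -0.64, 1.07 and -0.94 on slide 2 and -2.75 on slide 3. These values too rest on single arrays. Neither V3 array of slide 2 detected solexa-1328-360 (9.32 and 8.79). For solexa-5593-81 the V1 arrays there read 13.59 and 9.55, and on V3 replicate 4 normalization took 468 to 11.84 log2. With a single C1 array on slide 2, these values have no error of their own.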

How the data were processed

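Small RNA was measured on 20 Illumina miRNA bead arrays (655 probes), 4 for each of 5 ileal fractions. Per the study's methods, the authors read the arrays on the iScan system, summarised beads to an average signal intensity per probe in GenomeStudio (version not given in the sources used here), and normalized all arrays by the quantile method without background subtraction. Deposited were this intensity, raw and normalized, together with a detection p-value for each probe on each array. The series value table was identical to the normalized one (difference 0). The sources used here name no genome build.

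A linear model with 1 mean per fraction was fitted to log2 of the normalized intensity of the 20 arrays (limma 3.58.1 under R 4.3.3, with lmFit and eBayes), with Benjamini-Hochberg adjustment over all probes detected (detection p no higher than 0.01) on 4 of 4 arrays of either fraction (for the trend, of any fraction; for slides, on all 6 arrays of either slide). Probes were called where the adjusted p did not exceed 0.05 and, except in the trend, the difference reached 2-fold. The paired comparison that the study describes for the arrays could not be run because mice cannot be paired, and the error model of GenomeStudio was not run. The fit was tested on simulated data. Slides were read from the array titles. Replicate numbers only name arrays, p-values measure the spread between arrays, and depth is limited by the 4 arrays a fraction.

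Probes were chosen, and the lists and tests set, with earlier results of these data known. Named were called probes, the 6 brightest, non-overlapping probes in V0 against C1, the 5 smallest trend p and the 3 smallest p in V1, V2 and V3 against C1, 13 of the 44 in all. Other probes, the slide comparison and the fit without V3 replicate 4 and C1 replicate 4 were chosen after seeing the data. Probe sequences were not used here. Alternatives to normalization, background (neqc), detection filter, slide, samples, eBayes settings and test were run 1 at a time. Figures were drawn with matplotlib 3.10.9.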

Additional observations from a re-analysis of the deposited data

Results flagged for a closer look

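Of 75 groups of 4 arrays (14 probes, and the number of solexa-named probes detected, in 5 fractions each), 15 had an array whose gap to the nearest other exceeded Dixon's 95% critical value, where chance flags about 5% of groups. The causes were not tested.

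On V3 replicate 4, 5 probes stood apart, namely solexa-1127-427 at 9.28 log2, solexa-27-9416 at 9.13, solexa-3253-144 at 10.52 and solexa-622-718 at 10.53, all below the other V3 arrays, and solexa-2054-231 at 11.68, above them. On C1 replicate 4, 3 probes did, with solexa-27-9416 at 14.37, solexa-239-1823 at 9.57 and solexa-3253-144 at 11.03, each below the other C1 arrays.

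On C1 replicate 3, the only C1 array of slide 2, solexa-1328-360 stood at 11.30 and solexa-3062-153 at 13.29, above the other C1 arrays. The remaining 5 were solexa-284-1594 at 13.97 on C1 replicate 1, solexa-5593-81 at 13.59 on V1 replicate 3, solexa-1328-360 at 12.31 on V1 replicate 4 and at 9.76 on V2 replicate 3, and solexa-1127-427 at 13.44 on V0 replicate 2.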

How the results depend on the processing

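No paired analysis was possible because the labels tie no array to a mouse, and replicate numbers follow accession order. No solexa-named probe was called against C1, between V0 and V1 or in the trend under any alternative that kept all fractions and arrays. V1 against C1 fitted on those 2 fractions called 2, both of which had passed the detection filter in V1 alone. Leaving out 1 array called at most 1 (0 to 1 in V1, V2 and V3 against C1 and in the trend, 0 in V0 against C1 and V0 against V1). Slide 4 holds only C1 replicate 4, so a fixed slide block gives that array no weight.

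Called probes among all tested moved more. V0 against C1 (2) gave 12 without normalization, 4 with arrays centred on their median, 5 with neqc, 1 with detection on all arrays, 4 with slide as a fixed block, 0 on slide 2 alone, 1 on the 2 fractions alone, 0 with the exact rank-sum test, 5 without V3 replicate 4 and C1 replicate 4, and 1 to 13 leaving out 1 array. V1 against C1 (2) gave 1 without normalization and with detection on all arrays, 9 with the fixed block, 0 on slide 2 alone and with the exact test, 12 on the 2 fractions alone, 4 without both arrays, and 1 to 4 leaving out 1. V2 against C1 (2) gave 0 without normalization, on slide 2 alone and with the exact test, 1 with centred arrays, no filter, detection on all arrays and eBayes trend and robust settings, 7 with the fixed and 4 with the random block, 12 without both arrays, and 1 to 4 leaving out 1. V3 against C1 (1) gave 0 without normalization, with centred arrays, slide 2 alone, the 2 fractions alone, the exact test and the eBayes settings, 2 with neqc and the random block, 3 without both arrays, and 0 to 10 leaving out 1. V0 against V1 (0) gave 0 to 3 leaving out 1. The trend (0) gave 25 without normalization, 2 with neqc and the eBayes settings, and 0 to 35 leaving out 1. Slide 2 against slide 1 gave 2 calls without normalization (6 otherwise), 1 of them solexa-named, and 5 to 11 (2 to 4 solexa-named) leaving out 1 array.

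Reversed were solexa-2054-231 without normalization, at 0.18 in V0 against C1 and 0.072 per step in the trend, and solexa-5560-82 in V3 against C1 on slide 2 alone (-0.054). The V0 minus C1 median of the solexa-named probes was 0.29 with slide as a random block and 0.79 without normalization. With neqc, solexa-named minus miRNA-named medians were 0.26 in V1 and 0.67 in V2. In the slide comparison solexa-3062-153 and solexa-239-1823 lost their calls without normalization (1.79 and -0.99), and solexa-239-1823 also with centred arrays (-1.20) and without V0 replicate 1 or 3 (-0.96 and -0.95, under 2-fold), and solexa-200-2167 without V0 replicate 2, V1 replicate 1 or V2 replicate 2 (1.68, 1.62 and 1.70). Slide 2 alone holds 1 C1 array, and the exact test cannot call single probes, so their counts of 0 say nothing about stability. The cause was not tested.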
